A study of Phaseolus vulgaris with 24 samples.

Results

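Phvul.008G210100, annotated as a beta-D-glucan exohydrolase, and Phvul.002G083600, annotated as a pollen allergen with an expansin-type domain, are 2 cell wall genes among the 27213 gene models of common bean (Phaseolus vulgaris) that were counted. They were picked by their identifiers from the genes that the study listed for a sharp salt response in Ispir leaves and no call in TR43477 leaves, so their leaf values chose them and are given below as a description, without a test. Ispir was described by the study as the salt-tolerant variety and TR43477 as the susceptible one. The salt-treated plants of both varieties received NaCl in the hydroponic solution from 5 days after transfer, at 50 mM on the first day, 100 mM on the next and 125 mM thereafter, and were sampled after 3 days at 125 mM. The control plants grew in the same hydroponic system without the added NaCl. Leaf and root RNA of 3 plants per variety and treatment gave 8 groups and 24 libraries: salt-treated and control leaves of Ispir (IL) and of TR43477 (TL), and salt-treated and control roots of Ispir (IR) and of TR43477 (TR). Each variety stands for its kind by 3 plants per treatment and 1 sampling time.

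Plant cells can enlarge only as far as their wall yields. Beta-D-glucan exohydrolases are secreted enzymes that take glucose units one by one from the ends of wall beta-glucans, and in grasses they are known for trimming mixed-linkage glucan during growth. Expansins loosen the bonds between cellulose and the other wall polymers without cutting them, and one of their domains resembles a family of grass pollen allergens, which is where the annotation of Phvul.002G083600 gets its name. Salt is known to slow leaf growth.

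Phvul.008G210100 lay on chromosome 8 from 55819558 to 55823620 on the plus strand of genome v2.1, a span of 4063 bp. Phvul.002G083600 lay on chromosome 2 from 13380201 to 13382320, also on the plus strand, over 2120 bp. Neither overlapped another gene model. The positions give the span with introns and no transcript length, so the levels of the 2 genes, which are in CPM (counts relative to the library total, scaled by TMM factors), are compared between libraries and not with each other.

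The libraries held 12163655 to 26416766 counts, so that the 3 counts taken here as the limit of detection corresponded to a fraction of 1 CPM in each. The summed CPM of 16 light-harvesting Lhcb genes was 2294 to 54160 in leaf libraries and 30.2 to 448 in root libraries, in accordance with the tissue labels. No annotated root marker was used. Libraries of 1 group correlated at 0.94 to 0.992 (Pearson r over genes, log2 scale) except in the TL controls, where replicate 3 correlated at 0.88 and 0.904 with the others. Replicate 3 of the leaf controls also stood apart for both wall genes in both varieties, and the leaf values are therefore given with and without it.

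In leaves of Ispir, the glucan exohydrolase gene was nearly silent in 2 of 3 control plants and abundant in all salt-treated plants. Phvul.008G210100 had 12.4, 69.8 and 44.3 CPM in salt-treated IL (135, 1107 and 446 counts), against 0.308, 0.210 and 5.45 CPM in control IL (4, 4 and 99 counts). Every salt-treated library lay above every control library, as was so in either direction for 40.4% of all genes in IL, and the contrast was the one by which the gene was chosen. The means were 42.2 ± 28.8 and 1.99 ± 3.0 CPM (SD, n = 3 each), a 21.2-fold difference, and the fitted log2 fold change was 4.37. Bulk RNA cannot tell more RNA per cell from more cells of a type that makes it.

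The same gene showed no such separation in TR43477 leaves. It had 2.13, 1.56 and 2.88 CPM in salt-treated TL, against 1.02, 0.391 and 8.08 CPM in control TL. The groups overlapped, with the highest and the lowest value both among the controls, and the log2 fold change was -0.53. The mean in salt-treated Ispir leaves was 19.3-fold that in salt-treated TR43477 leaves. The gene was chosen by its pattern in these leaves, so this gap is a description.

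The pollen allergen gene was also high in all salt-treated Ispir leaves. Phvul.002G083600 had 36.4, 65.5 and 85.5 CPM in salt-treated IL (396, 1039 and 860 counts), against 1.31, 0.314 and 9.64 CPM in control IL (17, 6 and 175 counts). The means of 62.5 ± 24.7 and 3.75 ± 5.12 CPM (SD, n = 3 each) differed 16.6-fold, and the log2 fold change was 4.04. The salt and control plants again did not overlap, as was so for 40.4% of all genes in IL, and this contrast chose the gene.

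In TR43477 leaves this gene had 29.4, 8.81 and 19.6 CPM in salt-treated TL, against 0.649, 1.08 and 21.2 CPM in control TL. All 3 salt-treated libraries exceeded controls 1 and 2, as they did for Phvul.008G210100, while control 3 lay within their range for Phvul.002G083600 and above it for Phvul.008G210100. The log2 fold change of Phvul.002G083600 was 1.33. Groups that did not overlap made up 42.1% of all genes in TL, and neither wall gene was among them. The mean in salt-treated Ispir leaves was 3.24-fold that in salt-treated TR43477 leaves, which is a smaller gap than for the exohydrolase gene and likewise a description.

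**Figure D1:**
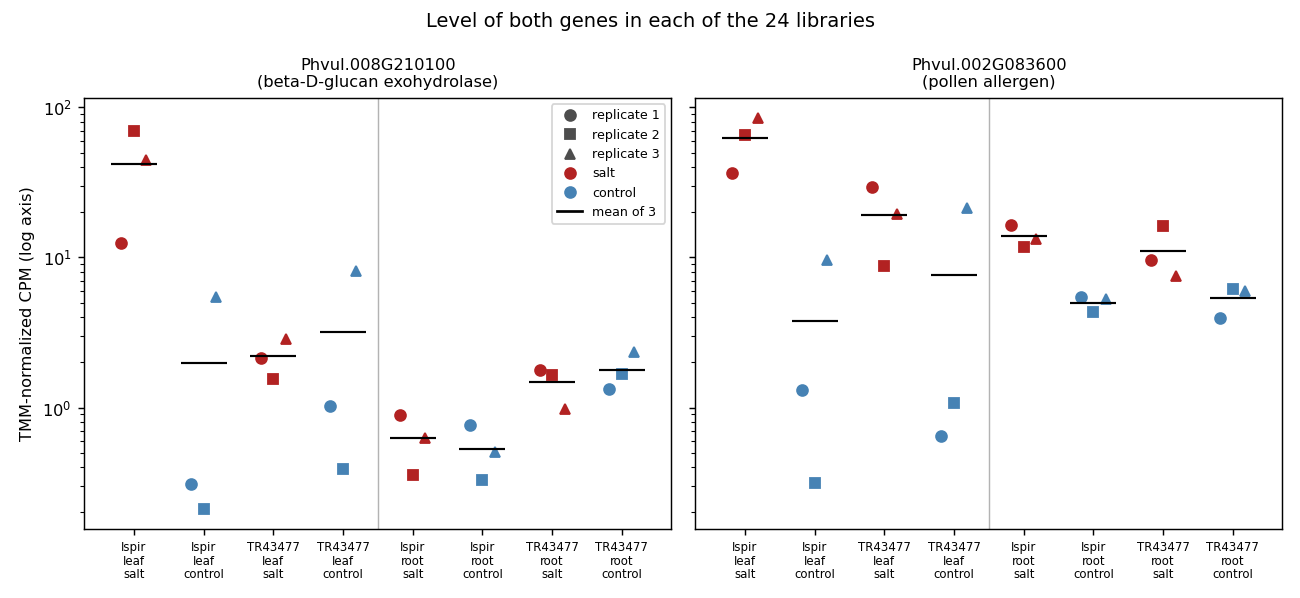
TMM-normalized CPM of Phvul.008G210100 (left) and Phvul.002G083600 (right) in each of the 24 libraries on a log axis, with symbols for the replicate number, red for salt, blue for control and a bar for the mean of 3. Salt-treated Ispir leaves stand highest for both genes, and control replicate 3 lies far above the other leaf controls of its variety.

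How large the leaf response appeared depended on control replicate 3. For Phvul.008G210100, control 3 was 21.1-fold above the mean of controls 1 and 2 in Ispir and 11.5-fold above it in TR43477. For Phvul.002G083600, it was 11.9-fold above in Ispir and 24.6-fold above in TR43477. Such a gap was uncommon over the transcriptome: among 18015 genes with a mean of at least 1 CPM in leaves, control 3 was at least 10-fold above the mean of the other controls for 129 genes (0.716%) in Ispir, for 395 (2.19%) in TR43477 and for 58 (0.322%) in both, a count made after the 2 genes' values were seen and which includes both of them.

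Without control 3, both genes had higher values in salt-treated leaves of either variety. The log2 fold change of Phvul.008G210100 was then 7.32 in IL and 1.63 in TL, where its sign turned from that with all 6 libraries. For Phvul.002G083600 it was 6.32 in IL and 4.49 in TL. Against control 3 alone, the salt-treated mean was still 7.74-fold higher for Phvul.008G210100 and 6.48-fold higher for Phvul.002G083600 in Ispir, whereas in TR43477 it was 0.271 and 0.908 times control 3. The lowest salt-treated Ispir leaf exceeded control 3 by 2.28-fold and 3.78-fold for the 2 genes. The difference in Ispir leaves was thus present against each control plant, and in TL the direction for Phvul.008G210100 turned without 1 library. It also turned in TL when the replicate number was added to the fit as a block, to 0.40, and the value of Phvul.002G083600 was then 2.64.

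The leaf markers moved with replicate 3 as well. The summed CPM of the 16 Lhcb genes was 19160, 25658 and 40340 in salt-treated IL, against 9624, 21658 and 42145 in control IL. It was 2294, 3002 and 2448 in salt-treated TL, against 27950, 37581 and 54161 in control TL. Control 3 had the highest sum of the controls in both varieties, and in TL the salt-treated plants lay far below the controls. The part of this difference in the values of the wall genes was not tested.

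Root values were not part of the rule that chose the genes, so the response of the genes was tested in roots. Earlier results of these data were known at that choice. The test was edgeR's quasi-likelihood test, adjusted over all genes by Benjamini-Hochberg. A gene was called where the adjusted p was under 0.01 and the log2 fold change beyond 1 in either direction. The pollen allergen gene rose in salt-treated Ispir roots. Phvul.002G083600 had 16.5, 11.7 and 13.3 CPM in salt-treated IR (222, 197 and 212 counts), against 5.41, 4.34 and 5.25 CPM in control IR (85, 66 and 83 counts). It was higher in 3 of 3 salt-treated libraries than in any control, with means of 13.9 ± 2.45 and 5.00 ± 0.579 CPM (SD, n = 3 each) that differed 2.77-fold. The log2 fold change was 1.44 (SE 0.18, 95% interval 1.02 to 1.87, edgeR adjusted p = 0.0032). Of the 2 wall genes 1 was called in IR, where 4.06% of all genes tested were called and 34.6% did not overlap. The call was lost when any of the 3 control plants or salt-treated plant 3 was left out (edgeR adjusted p = 0.021, 0.020, 0.012 and 0.014), while the log2 fold change stayed within 1.32 to 1.53.

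In TR43477 roots the same gene had values of the same order and was not called. It had 9.57, 16.1 and 7.55 CPM in salt-treated TR, against 3.95, 6.14 and 6.0 CPM in control TR. The groups did not overlap, as for 23.0% of all genes in TR, and the means of 11.1 ± 4.46 and 5.37 ± 1.23 CPM (SD, n = 3 each) differed 2.06-fold. The log2 fold change was 1.01 (SE 0.32, 95% interval 0.26 to 1.76, edgeR adjusted p = 0.17). Neither wall gene was called in TR, where 0.456% of genes were. Salt-treated TR libraries were also the deepest, with a median of 22916494 counts against 14437118 in control TR.

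The call in IR and its absence in TR did not amount to a difference between the varieties. The response of Phvul.002G083600 in Ispir roots minus that in TR43477 roots was 0.43 on the log2 scale (SE 0.38, 95% interval -0.40 to 1.26, edgeR adjusted p = 0.73). No gene of 24210 was called for this interaction by edgeR (0.0%), with 2975 at an unadjusted p under 0.05 and 254 called by DESeq2. The interval leaves room for a response larger by more than 1 log2 unit in Ispir as well as for a slightly smaller one.

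The exohydrolase gene was close to the limit of detection in Ispir roots, and no salt response was detectable there at this depth. Phvul.008G210100 had 0.894, 0.357 and 0.628 CPM in salt-treated IR (12, 6 and 10 counts), against 0.764, 0.329 and 0.506 CPM in control IR (12, 5 and 8 counts). The groups overlapped almost fully, with a log2 fold change of 0.18 (SE 0.53, 95% interval -1.05 to 1.41, edgeR adjusted p = 0.86). In TR43477 roots it had 1.79, 1.66 and 0.977 CPM in salt-treated TR (31, 51 and 26 counts), against 1.34, 1.66 and 2.35 CPM in control TR (20, 30 and 38 counts). These groups overlapped too, with a log2 fold change of -0.32 (SE 0.37, 95% interval -1.18 to 0.55, edgeR adjusted p = 0.72). The responses of the varieties differed by 0.49 (SE 0.62, 95% interval -0.86 to 1.85, edgeR adjusted p = 0.84), so a change of the size described in IL lay outside the interval in either variety's roots.

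**Figure D2:**
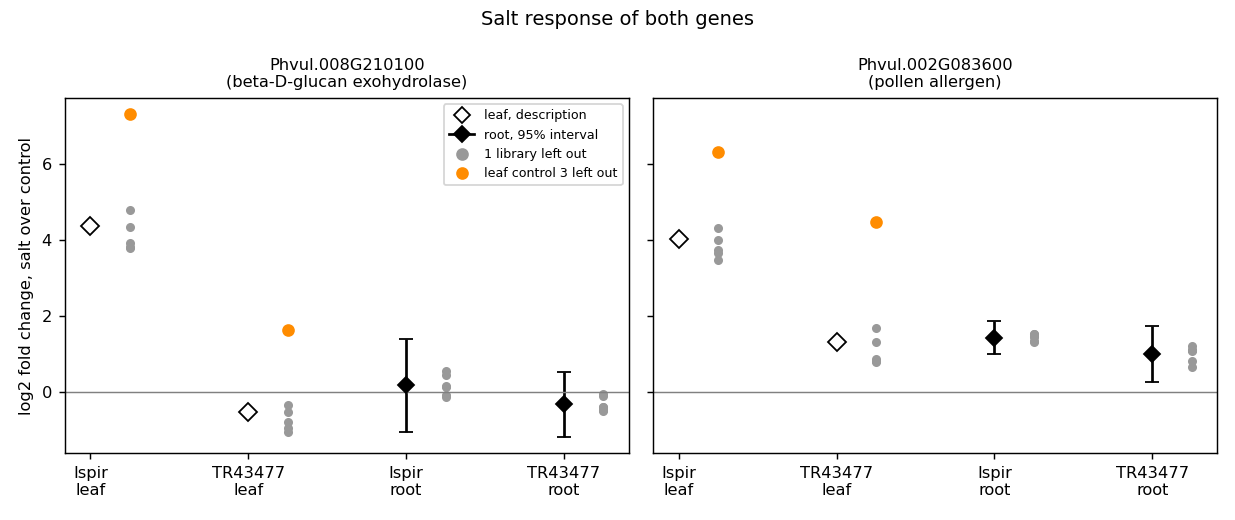
Log2 fold change of salt over control for both genes in leaves and roots of Ispir and TR43477. Open diamonds are leaf values given as a description, filled diamonds root values with 95% intervals, grey points the values with 1 library left out and orange points those without leaf control replicate 3, which reach 7.32 and 1.63 for Phvul.008G210100 and 6.32 and 4.49 for Phvul.002G083600 in IL and TL.

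The varieties were also compared within each treatment of the roots. In control roots Phvul.008G210100 was lower in Ispir, at 0.533 ± 0.219 CPM, against 1.78 ± 0.518 CPM in TR43477 (SD, n = 3 each), without overlap and with a 3.35-fold gap. The log2 difference, Ispir over TR43477, was -1.71 (SE 0.44, 95% interval -2.76 to -0.66), and it did not pass the threshold (edgeR adjusted p = 0.062). In salt-treated roots the same order was seen, at 0.626 ± 0.268 CPM in Ispir against 1.47 ± 0.435 CPM in TR43477, with a log2 difference of -1.24 (SE 0.43, 95% interval -2.22 to -0.25, edgeR adjusted p = 0.093). Neither gene was called in either comparison, in which 2.07% of genes were called in control roots and 5.99% in salt-treated roots. Groups without overlap made up 32.9% and 36.5% of genes in these comparisons, so the separation of the exohydrolase gene was of a common kind.

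Phvul.002G083600 showed little difference between the varieties in roots. Its log2 difference was -0.08 in control roots (SE 0.23, 95% interval -0.63 to 0.47, edgeR adjusted p = 0.85). In salt-treated roots it was 0.33 (SE 0.27, 95% interval -0.29 to 0.94, edgeR adjusted p = 0.47). A difference of 1 log2 unit lay outside both intervals.

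Ordered by mean level, Phvul.008G210100 was highest in salt-treated IL at 42.2 CPM, followed by control TL at 3.16, salt-treated TL at 2.19, control IL at 1.99, control TR at 1.78, salt-treated TR at 1.47, salt-treated IR at 0.626 and control IR at 0.533 CPM. Of the neighbours in this order, only salt-treated IL and control TL, and salt-treated TR and salt-treated IR, had values that did not overlap. The share of all genes so separated was 36.5% for these roots and was not counted for these leaves. The transcript was thus abundant in 1 of 8 groups, where its mean was 67.4-fold that of salt-treated Ispir roots.

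Phvul.002G083600 followed another order, in which the 4 salt-treated groups came before the 4 control groups. Its mean was 62.5 CPM in salt-treated IL, 19.3 in salt-treated TL, 13.9 in salt-treated IR, 11.1 in salt-treated TR, 7.65 in control TL, 5.37 in control TR, 5.00 in control IR and 3.75 CPM in control IL. Only salt-treated IL and salt-treated TL did not overlap among the neighbours, and the share of all genes separated between these groups was not counted. The other 7 groups overlapped from each to the next, salt-treated TR and control TL included, so this order of means is not a separation of salt from control. The mean in salt-treated Ispir leaves was 4.51-fold that in salt-treated Ispir roots.

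The 2 genes followed each other in leaves and not in roots. Over the 12 leaf libraries their log2(CPM + 1) values correlated with r = 0.872 (Spearman rho = 0.916), over the 12 root libraries with r = 0.027 (rho = 0.126), and over all 24 with r = 0.771 (rho = 0.734). These points share treatment, variety and library, both genes were chosen for the same leaf pattern, and the root counts of Phvul.008G210100 were at most 51, so the values are a description. The leaf controls 3 lay on the same course as the salt-treated leaves, high for both genes at once.

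**Figure D3:**
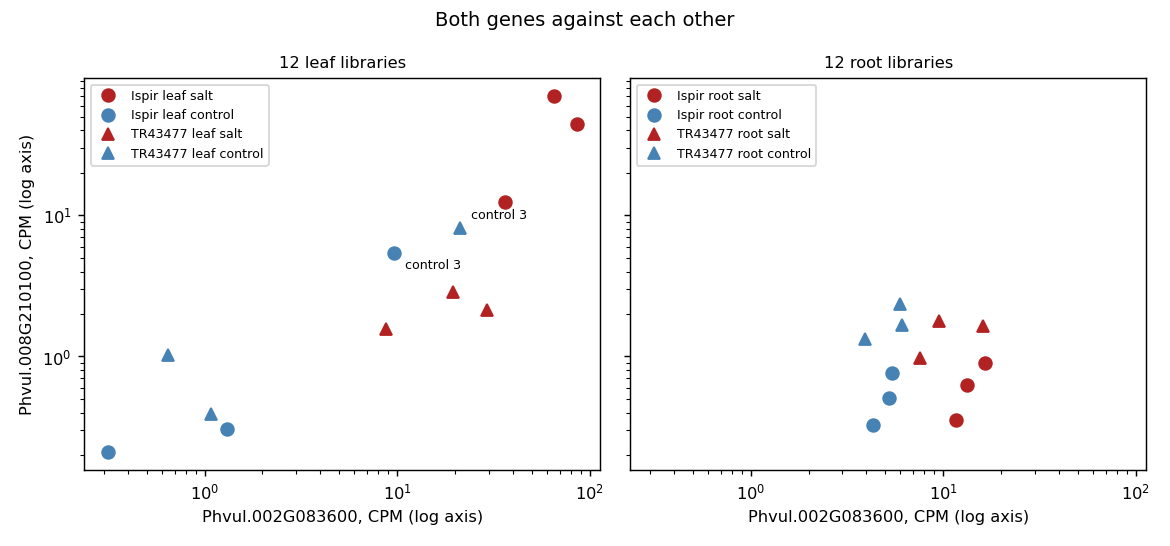
CPM of Phvul.008G210100 against CPM of Phvul.002G083600 on log axes in the 12 leaf libraries (left) and the 12 root libraries (right), red for salt, blue for control, circles for Ispir and triangles for TR43477. Leaf libraries spread along a diagonal (r = 0.872) with control 3 of each variety above its other controls, and root libraries show no such course (r = 0.027).

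Genes with the most similar pattern were ranked by the Pearson correlation of log2(CPM + 1) among genes with a mean of at least 1 CPM. Over 24 libraries and 20189 genes, Phvul.008G210100 was most like Phvul.001G261701 (r = 0.918), Phvul.007G147400 (0.917) and Phvul.008G157100 (0.915). By rank these values were lower (Spearman rho = 0.568, 0.78 and 0.67). Phvul.001G261701 averaged 4.99 CPM in salt-treated IL, the group by which Phvul.008G210100 was chosen, and 0.719 CPM or less in every other group. The means of Phvul.008G157100 were 14.3 CPM in salt-treated IL and 1.41 or less in every other group. Both genes reached the required mean of 1 CPM only through salt-treated IL. The filter and the group that chose Phvul.008G210100 thus favoured this likeness, which is a description. For Phvul.002G083600 the closest were Phvul.011G107700 (r = 0.896), Phvul.001G219400 (0.891) and Phvul.002G327300 (0.888), with Spearman rho = 0.935, 0.838 and 0.844. Phvul.011G107700, which the study's supplement names as related to beta-amylase 5, an enzyme of starch breakdown by its family, averaged 2950 CPM in salt-treated IL against 15.7 CPM in control IL, and 197 CPM in salt-treated TL against 497 CPM in control TL. The study singled it out, like Phvul.008G210100, for its response in Ispir leaves, and placed both genes under sucrose and starch metabolism. Its likeness to a gene chosen by the same leaves is therefore no independent evidence.

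The closest genes differed between the tissues. Within leaves, Phvul.008G210100 was most like Phvul.008G111500 (r = 0.985), Phvul.001G261701 (0.971) and Phvul.003G018000 (0.967). Phvul.002G083600 was most like Phvul.002G067200 (0.961), Phvul.002G072300 (0.957) and Phvul.003G108700 (0.957) there. Within roots, the genes closest to Phvul.002G083600 were Phvul.L004743 (0.964), Phvul.007G157800 (0.959) and Phvul.009G163400 (0.955), and those closest to Phvul.008G210100 were Phvul.001G167900, Phvul.001G032700 and Phvul.004G138500 (each 0.953). Of the genes closest within leaves, 1 was also among the closest over all libraries, namely Phvul.001G261701. The files, the study's text and the reference table gave no function for these genes other than Phvul.011G107700.

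Of the 8 genes nearest to the 2 wall genes on the chromosomes, 1 was called in IL, where 4.81% of all genes tested were called (5.09% in TL). It was higher in salt-treated leaves, by less than either wall gene. Of the 2 nearest models on each side of Phvul.008G210100, Phvul.008G210000, 2318 bp upstream on the same strand, had 6.02 ± 1.61 CPM in salt-treated IL against 5.22 ± 1.01 CPM in control IL, with a log2 fold change of 0.20 (edgeR adjusted p = 0.66). In TL, where the exohydrolase gene showed no separation, it rose to 104 ± 10.7 CPM in salt-treated leaves against 22.0 ± 8.99 CPM in control leaves (log2 fold change 2.25, SE 0.35, edgeR adjusted p = 0.0090, n = 3 each), and an edgeR adjusted p of up to 0.052 with a library left out. Phvul.008G209900, 14324 bp upstream, rose in IL with 48.3 ± 6.95 CPM in salt-treated against 21.4 ± 0.366 CPM in control leaves (log2 fold change 1.16, SE 0.16, edgeR adjusted p = 0.0054, up to 0.026 with a library left out). Its mean was also higher in salt-treated TR43477 leaves, without a call. In TL it had 155 ± 3.42 CPM in salt-treated against 59.9 ± 36.6 CPM in control leaves. The log2 fold change there was 1.38 (SE 0.52, edgeR adjusted p = 0.11) and was not called. Without control 3 it was 0.96 (edgeR adjusted p = 0.0085), short of the fold threshold. Without salt-treated plant 1 of TL the edgeR adjusted p was 0.25. The 2 models downstream, Phvul.008G210200 and Phvul.008G210300, were called in none of the 4 salt comparisons.

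Around Phvul.002G083600 the chromosome was sparse in expressed models. Phvul.002G083500 had no count in any library and Phvul.002G083800 at most 3. The nearest expressed models were Phvul.002G083700, 15899 bp downstream, with leaf log2 fold changes of 0.51 (IL) and 1.18 (TL) and root values of 0.43 (IR) and -0.39 (TR), and Phvul.002G083400, 62255 bp upstream, with values between -0.31 and -0.08. Neither was called in any salt comparison.

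**Figure D4:**
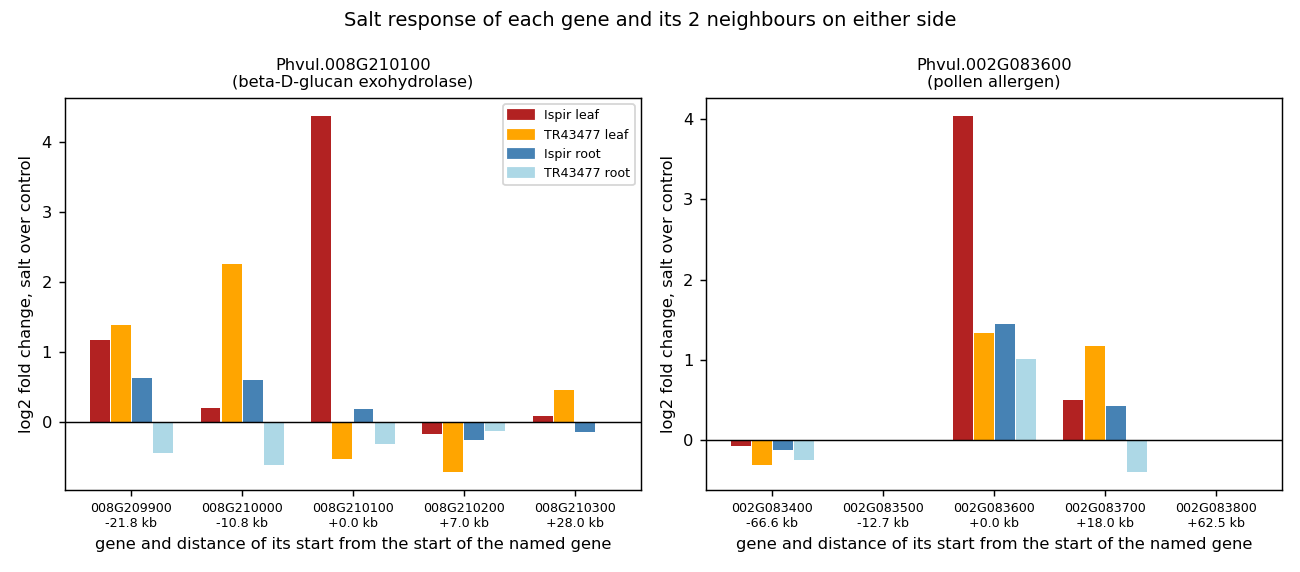
Log2 fold change of salt over control for each wall gene and the 2 annotated genes on either side, with the distance between gene starts in kb below each name (written without the prefix Phvul.) and bars for Ispir leaf, TR43477 leaf, Ispir root and TR43477 root. Genes without bars had at most 3 counts in any library, and in Ispir leaf the wall genes stand at 4.37 and 4.04 with the plotted neighbours at 1.16 or less.

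The wall genes named in the study's supplement, a list of 17 that holds both genes described here, were each examined in the tissue by which they had not been chosen. The list was chosen on these samples and is no independent evidence. Among the 5 leaf-chosen genes, which include the 2 described here, edgeR called 1 in IR, where it called 4.06% of all genes. That gene was Phvul.002G083600, whose call is given above. In IR 2 of the 5 had an unadjusted edgeR p under 0.05, and the median log2 fold change was 0.35 against 0.01 for all genes. In TR 4 of them could be tested and edgeR called 0, against 0.456% of all genes. There 1 had an unadjusted edgeR p under 0.05, DESeq2 called 0, and the median was -0.02 against 0.0 for all genes. Among the leaf-chosen genes tested, Phvul.008G210100 had the lowest and Phvul.002G083600 the highest log2 fold change in IR and in TR.

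Phvul.003G228000, the other gene of this list annotated as a pollen allergen, went the opposite way in leaves. It was itself chosen by its leaf response, and had 14.4 ± 6.85 CPM in salt-treated IL against 98.6 ± 32.4 CPM in control IL, and 19.7 ± 5.35 CPM in salt-treated TL against 41.0 ± 16.5 CPM in control TL (SD, n = 3 each). In roots its log2 fold changes of 0.35 in IR and -0.03 in TR did not pass the test (edgeR adjusted p = 0.73 and 0.99), and either sign turned when single libraries were left out. Both genes of the list under this annotation were chosen by their leaf response, so their opposite directions in IL are a description.

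The 12 root-chosen wall genes gave a further view of leaves. In IL edgeR called 0 of 12, with 4 at an unadjusted p under 0.05 and 1 lower gene called by DESeq2, and the median log2 fold change was -1.02 (-0.50 with the 2 genes at 0 counts in a group set at their bound) against -0.09 for all genes. In TL edgeR called 2 of 11 tested genes higher and 0 lower, DESeq2 called 4 higher and 0 lower, and the median was 1.76 against -0.09. The risers were Phvul.003G224800, an expansin-like b1 gene, with 19.1 ± 1.27 CPM in salt-treated TL against 0.746 ± 0.646 CPM in control TL (log2 fold change 4.67, SE 0.66, edgeR adjusted p = 0.0072, n = 3 each, up to 0.043 with a library left out), and Phvul.009G211000, which encodes a structural wall protein of extensin type, with 46.2 ± 7.86 CPM in salt-treated TL against 4.08 ± 1.60 CPM in control TL (log2 fold change 3.51, SE 0.35, edgeR adjusted p = 0.0027, n = 3 each, up to 0.022 with a library left out). In IL, Phvul.003G224800 had a log2 fold change of 1.34 (edgeR adjusted p = 0.15) and Phvul.009G211000 of -0.96 (edgeR adjusted p = 0.34). Without Ispir leaf control 3 these values were 1.045 and 0.33, so the sign of Phvul.009G211000 in IL rested on that library. The difference between the varieties in these 2 genes was not tested. Background calls by edgeR in leaves were 4.81% of genes in IL and 5.09% in TL. DESeq2 called more of all genes, 3127 of 22315 in IL and 3620 of 22672 in TL.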

How the data were processed

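The deposited counts of 24 libraries were made by the authors, who prepared stranded poly(A) libraries, trimmed reads with Trimmomatic, aligned pairs with HISAT2 to P. vulgaris genome v2.1 and counted genes with SeqMonk. Rules for strand, multiply mapped and overlapping reads are not given in the sources used here. The deposited p-values, FDR values and log2 fold changes come from the authors' own edgeR comparison and were not used.

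Totals were 12163655 to 26416766 counts, and limits of 3 counts cover counting error only. Genes with at least 1 count in a fit were tested two-sided with edgeR 4.0.16 in R 4.3.3 (TMM, quasi-likelihood, Benjamini-Hochberg over all genes). DESeq2 1.42.0, RLE scaling, filterByExpr, a replicate block, 1 fit of 12 libraries, plain CPM and leaving out each library were alternatives. Scripts were tested on simulated data. The 2 genes and the lists were chosen with earlier results of these data known. Named genes were the 2 wall genes, their 2 neighbours on each side, the 3 most alike by library set, and wall genes of the study's supplement. Of the 27213 identifiers, 0 matched the reference table, so no sequence is shown.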

Additional observations from a re-analysis of the deposited data

How the results depend on the processing

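Of the alternatives that gave a value, only leaving out libraries changed the call of a wall gene in roots. Phvul.008G210100 did not pass filterByExpr in IR, and the root interaction was already a fit of 12 libraries. With a library left out, the log2 fold change spanned -0.12 to 0.56 in IR, 3.81 to 7.32 in IL and -1.04 to 1.63 in TL for Phvul.008G210100, and 1.32 to 1.53 in IR (edgeR adjusted p 0.0025 to 0.021), 3.49 to 6.32 in IL and 0.80 to 4.49 in TL for Phvul.002G083600, whose difference between varieties in control roots spanned -0.24 to 0.022. In TR it spanned -0.48 to -0.05 for Phvul.008G210100 and 0.67 to 1.22 for Phvul.002G083600, and for the root interaction 0.18 to 0.84 and 0.22 to 0.77. For Phvul.003G228000 the range was -0.65 to 0.78 in IR, with -0.52 to 0.63 in TR, and it was -1.36 to 0.33 in IL for Phvul.009G211000. With plain CPM, Phvul.002G083600 averaged 5.82 in place of 5.00 CPM in control IR. The low counts of Phvul.008G210100 in roots limit what could be detected.

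Whether the replicate numbers pair the libraries was not settled. No comparison had every pair of deviations correlated above 0.1 (IR -0.08, 0.393 and 0.33) or every library closest to its own number. With 3 libraries per group, this check cannot exclude pairing. With the number as a replicate block, Phvul.002G083600 had a log2 fold change of 1.44 in IR (edgeR adjusted p = 0.0020), 0.97 in TR, 4.78 in IL and 2.64 in TL. Phvul.008G210100 had 5.01 in IL and turned to 0.40 in TL, and Phvul.003G228000 turned to 0.07 in TR. The block took the edgeR adjusted p to 0.011 for Phvul.008G209900 in IL, and to 0.025, 0.030 and 0.019 for Phvul.008G210000, Phvul.003G224800 and Phvul.009G211000 in TL. The fit of 12 libraries gave 0.086 for Phvul.008G209900 in IL.

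Genes called numbered 1073 in IL, 1153 in TL, 952 in IR, 108 in TR, 489 between control roots and 1431 between salt-treated roots. DESeq2 called 3127, 3620, 1856, 865, 1552 and 2338. The block gave 0 in TL, 1445 in IR, 5 in TR and 25 between control roots, and the fit of 12 libraries 2423 in TL, 354 in TR and 1073 between control roots. RLE scaling called 1 gene for the root interaction. Leaving out a library gave 91 to 1412, 25 to 2085, 137 to 1107, 4 to 510, 52 to 663 and 632 to 1637, and 0 to 34 for the interaction. The cause was not tested.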
